A study of Mus musculus with 4 samples.

Results

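CTCF is a zinc-finger protein that binds DNA at a long, directional motif and, with cohesin, marks the borders of chromatin loops and insulated domains. Long non-coding RNA (lncRNA) genes make transcripts that code for no protein. CTCF is known to bind at the promoters of many of them, at imprinted lncRNA loci and at lncRNA genes of the X chromosome. The regions described here are CTCF ChIP-seq regions at the ends of lncRNA genes alone. A region was counted where its summit, the position of highest signal, lay within 1 kb of the start or end of an annotated lncRNA gene. The summit also had to lie more than 1 kb from both ends of every protein-coding gene. By this rule 696 of 16128 regions were found in the list labelled CTCF knockout (4.32%) and 854 of 20043 in the control list (4.26%).

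Chromatin immunoprecipitation with an antibody to CTCF, followed by sequencing, was done once for CTCF knockout and once for control hearts of the C57BL/6 strain. The material was isolated cardiac myocytes of the left ventricle, pooled from 3 hearts per genotype. What drove the deletion, and how old the mice were, is not given in the sources. There was no replicate, so no test between the genotypes was possible, and every interval given covers counting error only. Peak lists hold no expression values, so neither the loss of CTCF nor the cell type could be checked, and the libraries are called by their labels.

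Across both lists, read pileups at region summits, recovered from the deposited values, ran from 6 to 274 reads in the knockout list and from 6 to 272 reads in the control list. The lowest local background was 0.851 reads in the knockout library and 1.01 reads in the control library. At lncRNA gene ends the median pileup was 16 reads in the knockout list and 17 reads in the control list, against 14 and 15 reads over all regions of these lists.

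The regions belong to 645 lncRNA genes in the knockout list and 793 in the control list, out of 12727 lncRNA genes in the annotation (5.07% and 6.23%). Most of these genes are known only by a systematic name. Symbols of the form Gm with a number account for 649 of the 854 control regions, and symbols of RIKEN clones ending in Rik for 144. Opposite-strand names, given to transcripts that run antisense to a neighbour, account for 17, and host genes of small RNAs for 10. Curated RefSeq transcripts back 268 of the control regions, and the other 586 lie at genes with predicted transcripts only.

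DNA near the summits is shown first, for some of the regions whose summit fell in an annotated lncRNA promoter. Each RefSeq promoter sequence runs from 250 bases before to 50 bases after a gene start (GRCm38.p6, the build called mm10). The following stretches hold the strongest kept regions, those also called in the knockout list, whose promoter carries the core of the CTCF motif within 50 bp of the summit. The core searched was CC, 3 bases of any kind, AG, 2 bases of any kind and GGC. These sequences were chosen after the values were seen. Capitals mark the match, on which each stretch is centred, so some stretches do not reach the summit. Each is written along the strand on which the motif reads.

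Snhg7 (chr2:26640312-26640351, minus strand): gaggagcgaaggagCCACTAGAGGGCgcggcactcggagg
2700038G22Rik (chr5:23850436-23850475, plus strand): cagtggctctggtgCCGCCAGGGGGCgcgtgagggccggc
Gm39000 (chr7:43466568-43466607, minus strand): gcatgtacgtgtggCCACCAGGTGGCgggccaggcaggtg
Gm30470 (chr11:79224603-79224642, plus strand): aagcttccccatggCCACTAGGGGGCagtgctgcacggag
Gm40084 (chr3:87411322-87411361, plus strand): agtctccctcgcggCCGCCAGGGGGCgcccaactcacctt
Gm41414 (chr16:5306760-5306799, plus strand): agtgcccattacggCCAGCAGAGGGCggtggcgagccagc
Abhd11os (chr5:135013279-135013318, plus strand): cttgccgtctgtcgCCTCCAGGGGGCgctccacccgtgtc
Gm41874 (chr19:57404337-57404376, plus strand): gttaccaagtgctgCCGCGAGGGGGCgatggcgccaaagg

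Fold enrichment is the authors' value per region. The deposited values match the pileup plus 1 read divided by the local background of the same library plus 1 read. At the regions just shown the control value ran from 19.9 at Snhg7 to 12.5 at Gm41874. The strongest lost regions, those with no region in the knockout list, that carried such a match are given in the same way for comparison.

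Gm9936 (chr5:114859455-114859494, minus strand): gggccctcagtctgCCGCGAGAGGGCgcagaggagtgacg
Gm33756 (chr19:59389380-59389419, plus strand): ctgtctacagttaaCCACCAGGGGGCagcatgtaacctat
Gm52283 (chr17:45626994-45627033, minus strand): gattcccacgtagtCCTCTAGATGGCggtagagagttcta

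Their control fold enrichments were 9.25, 7.98 and 7.77. An exact match to this core was no condition for a strong region, and near matches were not searched. The strongest region of all, at the start of Gm31812, lay in a promoter with no exact match on either strand. That promoter does hold ccactaggg, the bases with which the match at Gm30470 begins. The lack of an exact match therefore does not mean that no CTCF site is there. It is printed here whole and in lower case.

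Gm31812 promoter (chr1:52113841-52114140, minus strand): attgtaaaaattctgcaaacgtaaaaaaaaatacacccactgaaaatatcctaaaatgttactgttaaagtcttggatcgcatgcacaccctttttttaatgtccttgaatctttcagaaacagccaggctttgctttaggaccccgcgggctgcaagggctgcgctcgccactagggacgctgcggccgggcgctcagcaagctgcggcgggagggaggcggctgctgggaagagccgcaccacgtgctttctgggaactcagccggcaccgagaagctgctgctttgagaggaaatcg

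The first question was how many of the control regions at lncRNA gene ends were also called in the library labelled CTCF knockout. Of the 854 control regions, 624 overlapped a knockout region by at least 1 bp and are called kept (73.1%, Wilson 95% interval 70.0 to 75.9). Over the whole control list the kept share was 69.0%. The other 230 are called lost, meaning that the knockout list has no region at that place, and 31.0% of all control regions were lost. In the other direction, 77 of the 696 knockout regions at lncRNA gene ends overlapped no control region (11.1%, interval 8.94 to 13.6), where 14.2% of the whole knockout list did. The knockout list thus held 0.815 of the control number of these regions, and 0.805 over all regions.

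Kept regions at lncRNA gene ends had a median control fold enrichment of 8.78, and lost ones of 5.48. Among the knockout regions the shared ones had a median of 8.15 and those with no control region 5.40. At the kept regions the fold enrichment in the knockout list was a median of 0.920 times that in the control list, with a middle range of 0.740 to 1.15, and over all kept regions the median ratio was 0.948. Because each list is scaled to its own background, no change in binding is read from these ratios. The summits of the overlapping regions lay a median of 25 bp apart, and 94.9% lay within 100 bp of each other.

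The 10 kept regions with the highest control fold enrichment had between 19.4 and 27.4 in the control list, and between 7.72 and 26.4 in the knockout list. The first lay just upstream of the start of Gm31812 (chromosome 1, 52113823 to 52114081). Its fold enrichment was 20.5 in the knockout list and 27.4 in the control list. At the end of Gm40337 (chromosome 5, 130853421 to 130853909) these values were 19.02 in the knockout list and 25.5 in the control list. Gm11515 (chromosome 11, 95259093 to 95259549), beside the tachykinin gene Tac4, stood the other way round, with 26.4 in the knockout list and 24.3 in the control list. Among the 10, 8 had the lower value in the knockout list, and all had been chosen for their control values.

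Fold enrichment is a ratio, and the local background differed between the lists at some of these regions. At Gm16796 (chromosome 2, 170510988 to 170511335), inside Pfdn4, the pileup was 39 reads in both lists, and the fold enrichment was 11.03 in the knockout list and 19.5 in the control list. The background there was 2.63 reads in the knockout library and 1.05 reads in the control library. At Snhg7, a host gene of small nucleolar RNAs (chromosome 2, 26640099 to 26640453), the gap in fold enrichment was the widest of the 10, with 7.72 in the knockout list against 19.9 in the control list. Its pileup was 27 reads over a background of 2.63 in the knockout library and 39 reads over 1.01 in the control library. At Gm16796 the pileups were equal while the backgrounds were not, and at Snhg7 both differed.

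At the other named regions the gap ranged from narrow to wide. The start of Gm26802 (chromosome 7, 19300723 to 19301081) lies 1.85 kb from the immediate early gene Fosb and had 18.2 in the knockout list against 19.4 in the control list. Gm46266 (chromosome 11, 5114988 to 5115411), inside Emid1, had 19.6 in the knockout list and 19.4 in the control list. Gm11419 had 18.9 in the knockout list and 20.9 in the control list, and Gm2109 had 13.2 in the knockout list and 20.4 in the control list. The gap was wider at Gm52500, with 11.7 in the knockout list and 21.4 in the control list.

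The strongest lost regions were weaker than any of these. The first, inside the start of 4930447M23Rik (chromosome 2, 19344679 to 19344981), had a control fold enrichment of 11.5 and a pileup of 22 reads. Gm36036 (chromosome 2, 106431150 to 106431314) and Gm36748 (chromosome 2, 165233477 to 165233761), the second of them inside the cadherin gene Cdh22, each had 10.97 in the control list and 21 reads. Gm33977, Gm41308, 1700095J03Rik, Gm11723 and Gm30900 followed, with control fold enrichments between 10.5 and 9.47 and pileups of 18 to 23 reads. None of the 8 had a called region in the knockout list, which holds no value for positions below its threshold.

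A further 77 regions at lncRNA gene ends were called in the knockout list alone. At the end of Gm33951 (chromosome 19, 41442696 to 41442915), 39.9 kb from the nuclear receptor corepressor gene Lcor, the knockout fold enrichment was 11.3 with a pileup of 20 reads. Foxd2os (chromosome 4, 114910095 to 114910323), an opposite-strand transcript beside the forkhead gene Foxd2, had a knockout fold enrichment of 8.78. Gm3458, near the retinoic acid synthesis gene Aldh1a2, and Gm51695, inside the integrin gene Itga9, each had 8.10. LOC108169175 had 7.56, and Prkag2os1, which lies within a gene for a subunit of the energy sensor AMPK, had 7.35.

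**Figure D1:**
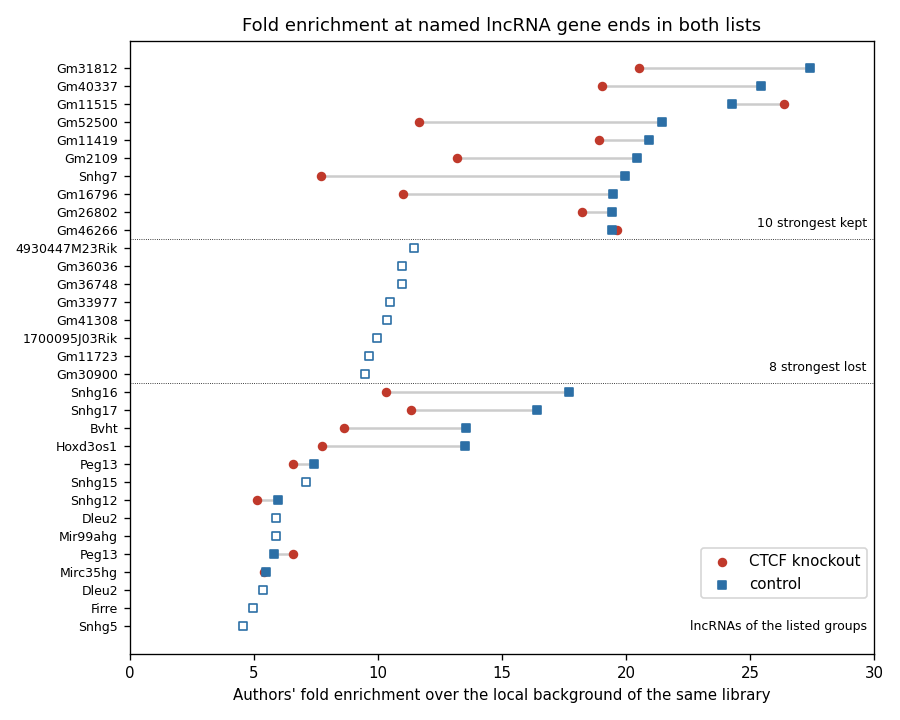
Authors' fold enrichment (x axis) at the strongest kept, the strongest lost and the listed-lncRNA control regions (rows). Red circles show the CTCF knockout list and blue squares the control list. At Bvht the circle is the knockout region with the longer overlap (8.65), and the other one (12.4) is not drawn. Open squares mark regions with no region in the knockout list. Gm11515 has the higher value in the knockout list (26.4 against 24.3), while Snhg7 has the widest gap (7.72 against 19.9).

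Some of these regions lay at well-known lncRNA genes. Of 76 lncRNA genes listed for imprinting and the X chromosome, heart, nuclear bodies and p53, Hox and development, and hosting of small RNAs, 7 had a region at an end in the knockout list (9.21%) and 13 in the control list (17.1%). Over all lncRNA genes these shares were 5.07% in the knockout list and 6.23% in the control list. Of their 15 control regions 9 were kept, against 69.0% of the whole list. Among 7 genes of nuclear bodies and the p53 response, which include Malat1 and Neat1, no region was called at a gene end in either list.

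Host genes of small RNAs made up most of this group, with 9 of 33 genes holding 10 control regions. Of these regions 5 were kept (50%, Wilson interval 23.7 to 76.3). All control regions at the same fold enrichment would have given 68.1%, inside that interval. Snhg genes carry small nucleolar RNAs in their introns. Snhg16 had a fold enrichment of 10.3 in the knockout list and 17.7 in the control list. Snhg17 had 11.3 in the knockout list and 16.4 in the control list. The region at Snhg12 was weaker, with 5.11 in the knockout list and 5.98 in the control list, as was that at Mirc35hg, the host gene of a microRNA cluster, with 5.40 in the knockout list and 5.48 in the control list. Lost regions lay at Snhg15 (control fold enrichment 7.11), Mir99ahg (5.88), Dleu2 (5.88 and 5.36 at 2 regions) and Snhg5 (4.57). Dleu2 is the host gene of the miR-15a and miR-16 pair. The kept regions at Snhg7, Snhg16 and Snhg17 lay above every lost one in control fold enrichment, while those at Snhg12 and Mirc35hg lay among them. The regions at Snhg5 and Firre and the weaker one at Dleu2 were named after their values were seen.

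The other groups held regions at Bvht, Hoxd3os1, Peg13 and Firre. Bvht, known as Braveheart, is a mouse lncRNA needed for the commitment of embryonic stem cells to the cardiac lineage. Its single control region (chromosome 18, 61647083 to 61648067), with a fold enrichment of 13.6, overlapped 2 knockout regions with 12.4 and 8.65. Hoxd3os1 in the HoxD cluster had 7.75 in the knockout list and 13.5 in the control list. At Peg13, an imprinted lncRNA gene inside Trappc9, 1 knockout region with 6.60 overlapped 2 control regions with 7.42 and 5.82. At Firre, an X-linked lncRNA gene whose locus is known for CTCF binding, a control region with 4.99 and a pileup of 9 reads was lost.

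The kept share was then compared with regions at other positions. At protein-coding gene ends 63.6% of 3532 control regions were kept, 9.45 percentage points fewer than at lncRNA gene ends (Newcombe 95% interval 6.00 to 12.7). With their control fold enrichments weighted to those of the lncRNA-end regions, 68.6% of the protein-coding class would have been kept, which leaves 4.46 points. Away from all gene ends 70.0% of 15657 control regions were kept, and the lncRNA ends lay 3.06 points above them (interval -0.0943 to 6.02). This difference turned to -1.04 points at the same control fold enrichment. Regions are not replicates, and these intervals describe the lists only. The median control fold enrichment was 7.73 at lncRNA gene ends and 6.98 in both other classes.

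The kept share climbed with control fold enrichment. Among the weakest 10% of control regions, 20 of 70 of those at lncRNA gene ends were kept (28.6%, Wilson 95% interval 19.3 to 40.1), against 32.7% of the other control regions. Among the strongest 10%, from a fold enrichment of 12.1, all 118 were kept, against 98.9% of the others. In each bin the share of the other control regions lay inside the interval for the lncRNA ends.

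**Figure D2:**
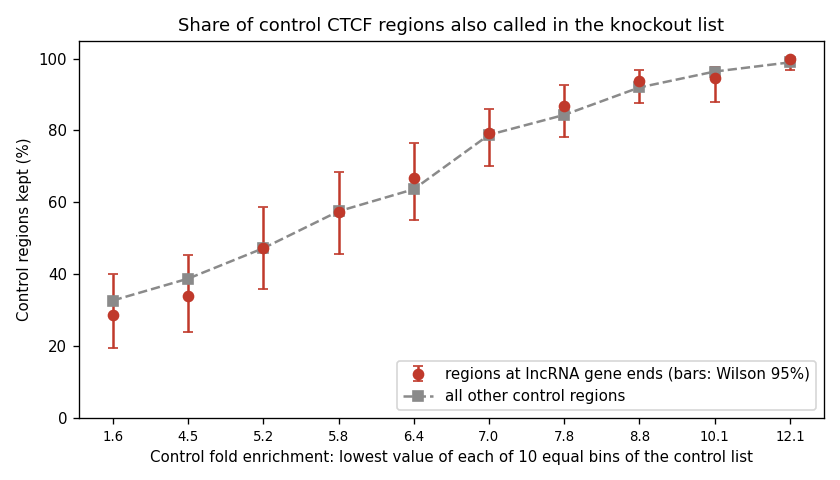
Share of control regions also called in the knockout list (y axis, percent) in 10 equal bins of control fold enrichment (x axis), as red circles with Wilson 95% intervals for regions at lncRNA gene ends and grey squares for all other control regions. The shares are 28.6% and 32.7% in the weakest bin and 100% and 98.9% in the strongest.

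Among the regions at lncRNA gene ends, those inside a protein-coding gene were kept less often. Inside such genes 156 of 239 were kept (65.3%, interval 59.0 to 71.0). Between protein-coding genes 468 of 615 were kept (76.1%, interval 72.6 to 79.3). The difference was -10.8 points (Newcombe interval -17.8 to -4.08). All control regions at the same fold enrichment would have given 70.8% and 74.0%, which leaves -7.58 points. Away from gene ends the same split gave 67.3% inside protein-coding genes and 72.7% between them, a difference of -5.40 points. Set against all control regions at the same fold enrichment, -3.43 points were left there.

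Kept shares also differed between lncRNA gene starts and ends. Strand was taken from the RefSeq promoter table, which had an entry for the genes of 642 of the 854 control regions. At lncRNA gene starts 300 of 419 control regions were kept (71.6%, interval 67.1 to 75.7), and at lncRNA gene ends proper 176 of 223 (78.9%, interval 73.1 to 83.8). The difference, start minus end, was -7.32 points (Newcombe interval -13.9 to -0.202). At protein-coding genes 60.8% were kept at starts and 74.0% at ends, a difference of -13.1 points. Fold enrichment at lncRNA starts and ends was nearly the same, with medians of 7.75 and 7.73.

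**Figure D3:**
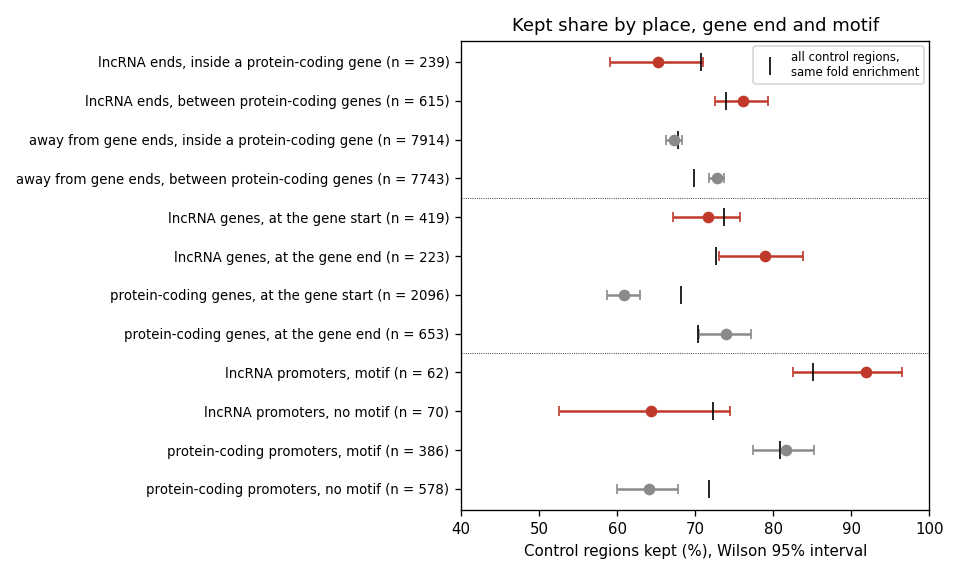
Kept share of control regions (x axis, percent, with Wilson 95% intervals) split by place, gene end and motif (rows), in red for lncRNA genes and in grey for the comparison classes. Black ticks show the share of all control regions at the same fold enrichment. The lncRNA-end regions inside protein-coding genes sit at 65.3% and those between such genes at 76.1%.

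Summits gathered at the starts of lncRNA genes but not at their ends. Within 200 bp of a start lay 138 of 334 knockout summits (41.3%) and 167 of 419 control summits (39.9%), where an even spread over the window would give 20%. Within 200 bp of an end lay 36 of 202 knockout summits (17.8%) and 33 of 223 control summits (14.8%). The fullest bin was the 200 bp just before the start, with 83 knockout and 102 control summits. Its kept share of 81.4% was the highest of the bins around the start, and the lowest was 54.8%, or 17 of 31, in the next 200 bp upstream. These are the extremes of small bins, and no share at the same fold enrichment was computed for them. Over both gene ends the kept share was 74.4% within 250 bp and 71.6% beyond 750 bp. All control regions at the same fold enrichment would have given 75.9% and 73.3%. Inside the lncRNA gene 72.3% were kept and outside it 73.9%.

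**Figure D4:**
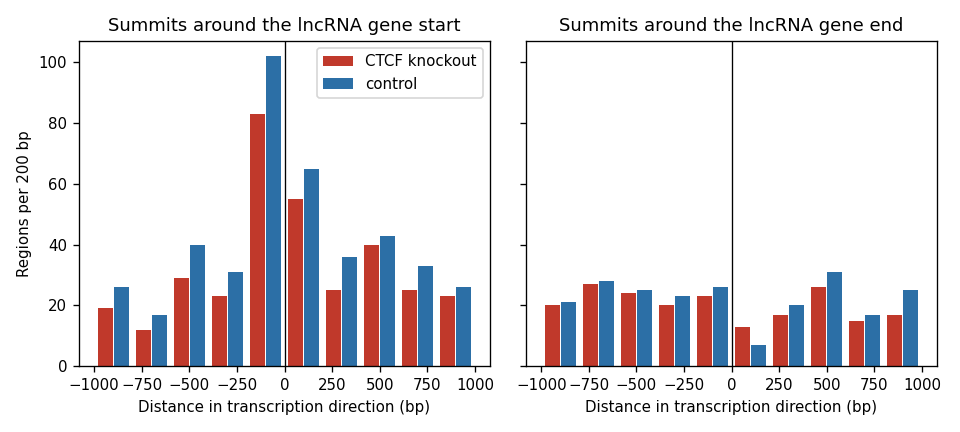
Number of region summits per 200 bp (y axis) by distance from the lncRNA gene start (left) and end (right) in the direction of transcription (x axis, bp), in red for the CTCF knockout list and in blue for the control list. The 200 bp before the start hold 83 knockout and 102 control summits, while no bin at the gene end holds more than 31.

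Promoters with a summit carried the CTCF core motif far more often than other promoters. The core described above was searched on both strands. It was found in 66 of 119 lncRNA promoters with a knockout summit (55.5%, Wilson 95% interval 46.5 to 64.1) and in 70 of 145 with a control summit (48.3%, interval 40.3 to 56.3). Of 11344 lncRNA promoters with no summit in either list 5.55% held a match, and of all 32851 promoters of this length 8.61%. Among 1027 protein-coding promoters with a control summit 39.8% held a match (interval 36.9 to 42.9), so a high share was not particular to lncRNA promoters. A stricter core, with AGG in place of AG and 1 base of any kind after it, gives a subset of these matches and was found in 34.5% and 30.3% of lncRNA promoters with a knockout and a control summit, and in 3.43% of all promoters. Base composition moved with this: the median GC content was 54.7% in lncRNA promoters with a control summit and 48.3% in those with no summit. Its part in the result was not tested.

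Of the 132 control regions with a summit in an lncRNA promoter, 102 were kept. With a match in the promoter 57 of 62 were kept (91.9%, interval 82.5 to 96.5), and with none 45 of 70 (64.3%, interval 52.6 to 74.5). Those with a match were also stronger, with a median control fold enrichment of 8.88 against 7.61. All control regions at the same fold enrichment would have given 85.1% and 72.3%, each inside its interval. In protein-coding promoters 81.6% of regions with a match (interval 77.4 to 85.2) and 64.0% of those without (interval 60.0 to 67.8) were kept. There all control regions at the same fold enrichment would have given 80.9% and 71.8%, the first inside its interval and the second above it.

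The matches lay close to the summits and mostly read in the direction of transcription. The match nearest to the summit was centred a median of 21.5 bp from it, and in 57 of 62 regions the distance was at most 50 bp. Leaving out 1 region shared by promoters on both strands, 41 of 56 such matches lay on the strand of the lncRNA (73.2%, interval 60.4 to 83.0) and 15 on the opposite strand. Of these, 38 and 15 regions were kept. In protein-coding promoters 67.9% of 290 such matches read along the gene, inside that interval.

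**Figure D5:**
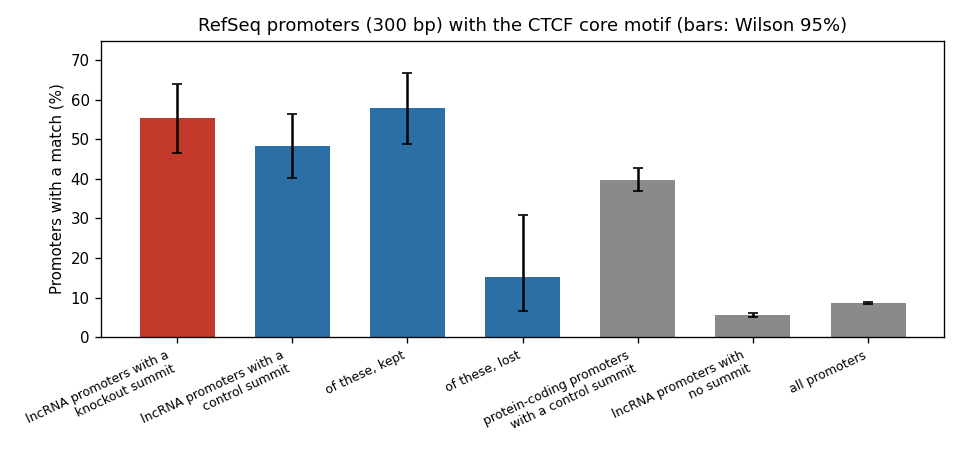
Share of 300 bp RefSeq promoters holding the CTCF core motif (y axis, percent, with Wilson 95% intervals) for sets of promoters (x axis). Red is the knockout list, blue the control list and grey the comparison sets. Promoters with a lost control region stand at 15.2% and those with a kept one at 58.0%.

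A further set of promoter sequence belongs to Gm33663 on chromosome 7, which had a region at each end, the nearer of them 2.95 kb from the imprinted growth regulator gene Cdkn1c. At its start (143466164 to 143466697) the fold enrichment was 10.8 in the knockout list and 8.04 in the control list. At its end (143463922 to 143464140) it was 10.8 in the knockout list and 7.73 in the control list. The match in capitals is centred 22.5 bp from the summit at the start and reads along the lncRNA.

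Gm33663 promoter (chr7:143466449-143466748, minus strand): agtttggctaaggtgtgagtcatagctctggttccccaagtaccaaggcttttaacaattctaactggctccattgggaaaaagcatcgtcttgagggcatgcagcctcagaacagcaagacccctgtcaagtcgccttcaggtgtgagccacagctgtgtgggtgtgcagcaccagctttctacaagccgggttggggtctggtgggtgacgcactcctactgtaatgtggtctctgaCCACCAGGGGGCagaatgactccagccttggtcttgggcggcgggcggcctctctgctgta

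Regions at both ends were found for 15 lncRNA genes in the control list. The other 4 strongest were 4930553P18Rik, Gm10457, Gm31242 and Gm32700, and both regions were kept at each of them. At 4930553P18Rik the fold enrichment was 10.0 in the knockout list and 9.92 in the control list at the start, and 6.21 in the knockout list and 7.77 in the control list at the end. At Gm32700 the region at the higher-coordinate end had 3.86 in the knockout list against 9.30 in the control list, while that at the other end had 11.2 in the knockout list and 10.97 in the control list.

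Protein-coding genes listed for heart muscle, 144 in all or 0.658% of protein-coding genes, were next examined as neighbours. Such a gene was the nearest protein-coding gene, within 100 kb, for 19 knockout regions (2.73%) and 26 control regions (3.04%). These are shares of regions, for which the share of genes is no baseline. The same share over all regions of the lists was not computed, so no excess near heart genes is read from them. Of these control regions 20 were kept, against 69.0% of the whole list. Those named here were picked after their values were seen. For genes of cardiac transcription factors 6 of 9 were kept. Among them, Gm52046 near Mef2c had 7.37 in the knockout list and 13.96 in the control list. Hdnr, an lncRNA gene 29.3 kb from Hand2, a regulator of right ventricular development, had 8.54 in the knockout list and 13.3 in the control list. Gm52543 near Gata5 stood the other way round, with 12.9 in the knockout list and 9.03 in the control list. Lost ones lay at Crnde beside Irx5 (control fold enrichment 7.71), at Gm33026 near Hand1 (5.98) and at Tbx3os1, with its summit inside Tbx3 (3.88), while Tbx3os2 had 6.36 in the knockout list and 6.33 in the control list.

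Near genes of ion channels and calcium handling all 6 control regions were kept, 3 of them at Gm32630 close to the calmodulin gene Calm3, with 5.94 to 7.31 in the knockout list and 4.99 to 8.85 in the control list. For metabolic genes 5 of 6 were kept, among them Gm32534 near the hexokinase gene Hk2, with 13.0 in the knockout list and 11.9 in the control list. In this group 4 of the control regions lay at the start of Gm52500 inside Pfkfb3, a regulator of glycolysis. Those with control fold enrichments of 10.1 and 5.12 overlapped the same knockout region, so the kept count is not a count of separate knockout regions. For genes of stress and the fetal programme 3 of 4 were kept, and the single region near a sarcomere gene, at Gm33800 beside Xirp1, was lost (control fold enrichment 7.98). Over the whole control list 69.0% were kept, and these groups are too small to be compared with it or with each other.

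Regions on either side of the rule's distance limit are given for description. The pair just inside, both at 1000 bp from the gene end, had 8.29 in the knockout list against 6.88 in the control list at Gm31839 and 6.34 in the knockout list against 6.47 in the control list at 1700048O20Rik. The pair just outside, both at 1003 bp, had 3.88 in the knockout list against 5.36 in the control list near Gm41143 and a lost control region with 4.38 near Gm1720. Both regions outside had lower control values than both inside.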

How the data were processed

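CTCF regions were deposited as 1 peak list per ChIP library. The mm10 build, MACS2, SAMtools 0.1.19 and Bowtie2 2.2.6 are named in the submitters' processing notes. Settings such as the threshold are not given in the sources. The authors' lists give per region a fold enrichment (a ratio matching the pileup plus 1 over the local background plus 1), −log10 p and −log10 q values and a score. The deposited summit position was used as given. The input libraries were not analysed here.

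Gene spans came from RefSeq (GRCm38.p6). Regions are named by the nearest lncRNA gene end. The named regions were the 10 strongest kept, the 8 strongest lost, the 6 strongest knockout-only, the 12 strongest at listed lncRNAs, the 5 strongest genes with regions at both ends, and the pairs at the distance limit. Members and lists were chosen with earlier results of these data known. Whole-read pileups matched the deposited −log10 p within 0.001 in 100% of regions. Overlap, class and pileup code was tested on simulated data. Depth is otherwise unknown. Expected shares at the same fold enrichment weight the kept share of each of 10 equal bins of the control list. Wilson and Newcombe 95% intervals cover counting error only. Computation used scipy 1.17.1, pandas 2.3.3 and numpy 2.4.6 under Python 3.11.15, with figures from matplotlib 3.10.9.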

Additional observations from a re-analysis of the deposited data

How the results depend on the processing

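No paired analysis was possible because there was 1 ChIP library for each genotype. The kept share at lncRNA gene ends, 73.1% as reported, became 76.4% where regions under a −log10 q of 5 were dropped and 76.4% where those under a fold enrichment of 5 were. It was 64.3% where an overlap had to cover 50% of both regions, 69.7% with summits within 100 bp and 82.1% with lists of equal length. Under the other 5 alternatives it stayed within its interval. The share of knockout regions with no control region, 11.1% as reported, was 21.98% with reciprocal overlap, 15.4% with summits within 100 bp and 15.8% with lists of equal length. The number of knockout regions over control regions lay between 0.810 and 0.975, against 0.815. The difference to protein-coding gene ends kept its direction under the 10 alternatives and was 5.42 points with lists of equal length and 4.46 points when weighted to equal control fold enrichment. The difference to regions away from gene ends turned to -1.04 points at the same control fold enrichment and lay between 2.23 and 4.82 points under the other 9. For each of these shifts the cause was not tested. The strongest region per gene, and leaving out regions near further protein-coding starts, were added after the data were examined. Lost regions cannot be told apart from regions just under the threshold of the knockout list.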

Other observations

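Some regions at lncRNA gene ends also lay at a start inside a protein-coding gene. The RefSeq promoter table places a further protein-coding start, away from the gene's own ends, within 1 kb of 28 knockout and 43 control summits. Of these control regions 27 were kept (62.8%, Wilson 95% interval 47.9 to 75.6), and of the other 811 the share was 73.6% (interval 70.5 to 76.5). The strongest was that at Gm52500 inside Pfkfb3. Gm52500 was the lncRNA gene with the most control regions, with 4 at its start, of which 3 were kept. Those with control fold enrichments of 10.1 and 5.12 were kept through the same knockout region.

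Opposite-strand lncRNA genes kept 10 of 17 control regions (58.8%, Wilson interval 36.0 to 78.4). Genes with Gm names kept 74.1% of 649 (interval 70.6 to 77.3). All control regions at the same fold enrichment would have given 69.1% and 73.4%, each inside its interval. Regions at genes with curated transcripts were kept in 70.9% and those with predicted transcripts only in 74.1%. The X chromosome held 3 knockout and 6 control regions of this kind among 289 lncRNA genes, or 2.08 control regions per 100 lncRNA genes. Among the autosomes this rate ran from 4.74 on chromosome 3 to 10.4 on chromosome 11. The number of all control regions on each chromosome was not set beside these rates, so they are not read as a trait of lncRNA gene ends.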
